A study of Homo sapiens with 2 samples.

Results

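The let-7 family is a group of small RNAs that share one seed, the stretch near the 5′ end by which a microRNA (miRNA) finds its target messages. The miRNAs described here are the guide arms of that family: the 5p arms of let-7a, let-7b, let-7c, let-7d, let-7e, let-7f, let-7g and let-7i, and miR-98-5p. They were chosen by name, and 9 of the 793 distinct mature miRNAs in the count table are members. Small RNA had been sequenced from exosomes, vesicles pelleted from the culture medium of MHCC97H and HepG2 cells. MHCC97H is a hepatocellular carcinoma line of high metastatic potential, and HepG2 is a liver tumor line that the labels give the same cell type. Both were grown untreated, as far as the labels say, in medium whose serum had been freed of exosomes, and each line gave 1 library.

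let-7 miRNAs repress messages of growth and fetal programs, among them those of HMGA2, MYC and the RNA-binding protein LIN28. LIN28 in turn binds let-7 precursors and blocks their maturation, so that the family is low in embryonic cells and rises as tissues differentiate. Adult liver carries much let-7, and loss of let-7 has been reported in liver cancer. Each hairpin precursor yields a 5p and a 3p arm, and in this family the 5p arm is usually the one loaded into Argonaute.

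Depth differed between the libraries, with 304457 miRNA reads from MHCC97H exosomes and 22831 from HepG2 exosomes. Levels are given as CPM (counts scaled to a common total of miRNA reads), so 1 read was worth 3.28 CPM in MHCC97H and 43.8 CPM in HepG2. With 1 library per cell line no test between lines was possible, and the cell line cannot be told apart from the making of its library. Intervals are exact 95% Clopper-Pearson intervals and cover counting error only. A count of 0 was set against a floor of 3 reads, or 131 CPM in HepG2, where its exact interval reaches 162 CPM. The hepatocyte miRNA miR-122-5p, looked at because of the labelled cell type, had 979 CPM in MHCC97H and 1051 CPM in HepG2. It ranked 111th and 83rd of all miRNAs, below the endothelial miR-126-3p (6310 and 6088 CPM). These levels do not settle the cell type.

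All 9 mature sequences have the same seed, bases 2 to 8, and they are shown because the family is defined by it and because small differences outside it separate the members. The seed is in capitals in the sequences below, which are from RefSeq (GRCh38.p14) and run 5′ to 3′; hsa marks the human form.
hsa-let-7a-5p: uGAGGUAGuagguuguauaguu
hsa-let-7b-5p: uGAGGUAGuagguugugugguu
hsa-let-7c-5p: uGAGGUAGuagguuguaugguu
hsa-let-7d-5p: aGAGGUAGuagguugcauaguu
hsa-let-7e-5p: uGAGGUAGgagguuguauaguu
hsa-let-7f-5p: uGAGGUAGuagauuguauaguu
hsa-let-7g-5p: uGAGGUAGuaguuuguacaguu
hsa-let-7i-5p: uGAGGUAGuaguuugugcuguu
hsa-miR-98-5p: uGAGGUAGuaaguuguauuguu

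Each sequence is 22 bases long, and 14 of the positions are identical in all 9. Counted from 1 at the 5′ end and with let-7a-5p as the reference, let-7f-5p carries G12A, let-7c-5p A19G and let-7e-5p U9G. let-7b-5p carries A17G and A19G, and let-7d-5p carries U1A and U16C. let-7g-5p carries G12U and U18C, and let-7i-5p carries both of these together with A17G and A19U. miR-98-5p carries G11A and A19U. Of the 36 pairs of members, 4 differ at 1 base: let-7a with let-7c, let-7e and let-7f, and let-7b with let-7c. How many mismatches the authors' read assignment allowed is not given in the sources used here, so whether reads crossed between such pairs was not tested. Of the 793 miRNAs in the table, 704 matched a RefSeq mature sequence by name, and among these the members were the 9 that carry the seed.

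Together the 9 arms took 16.0% of miRNA reads in MHCC97H exosomes (15.9 to 16.2%) and 2.72% in HepG2 exosomes (2.52 to 2.94%). This is a 5.89-fold difference in relative abundance (5.44 to 6.39), on 48865 reads against 622. Only shares of miRNA reads were measured, not amounts. In such bulk material a smaller part of vesicles carrying let-7, less let-7 per vesicle and more of other miRNAs cannot be told apart. A member was called higher where its ratio, on the log2(CPM + 1) scale, was at least 2-fold and the interval of its plain CPM ratio excluded 1. By this rule all 9 were higher in MHCC97H. Of the 543 miRNAs that reached 10 CPM in either library, 20.4% were called higher in MHCC97H and 9.02% in HepG2. Of the 137 averaging 500 CPM or more, as all 9 members did, 49.6% and 18.2% were. The members thus lie above both MHCC97H shares, of which the second is the closer background because calls need reads. Of the members, 8 passed the 10 CPM filter in both libraries, and 1, miR-98-5p, through MHCC97H alone. miR-98-5p and let-7e-5p had 0 and 131 CPM in HepG2, so they reached the mean of 500 CPM through their MHCC97H level.

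The median log2 ratio was 2.78 for the members and 1.12 for the 543 miRNAs, so that the typical miRNA also leaned to MHCC97H. Of all calls, 69.4% were for MHCC97H with library totals, 49.7% when the most abundant miRNAs were kept out of the total, and 35.8% after centring on the median miRNA. Centring lowered every log2 ratio by 1.12 and left 7 of the 9 members called, against 9.94% of the 543 miRNAs. let-7g-5p and let-7d-5p then fell short of 2-fold. The share among miRNAs averaging 500 CPM or more, the closer background, was not counted after centring.

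**Figure D1:**
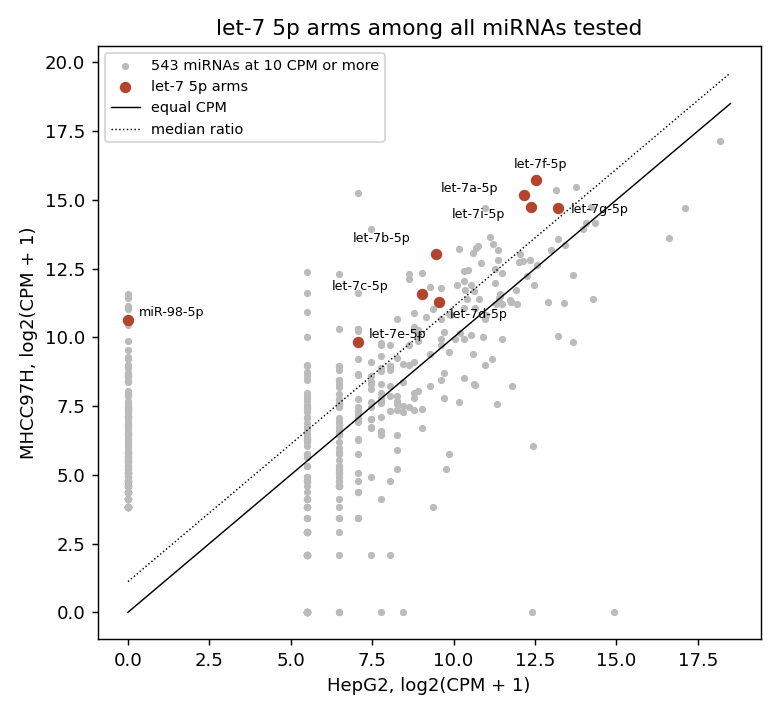
Level of each miRNA in HepG2 (x axis) and MHCC97H (y axis), both as log2(CPM + 1), for the 543 miRNAs that reached 10 CPM. The 9 let-7 5p arms (red) lie above the line of equal CPM, and let-7g-5p and let-7d-5p lie nearest to the dotted line of the median ratio; miR-98-5p had no HepG2 read.

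let-7f-5p and let-7a-5p, whose mature forms differ at 1 base, were the most abundant members in MHCC97H. let-7f-5p, a form common in many tissues, had 16293 reads (53515 CPM) in MHCC97H and 134 reads (5869 CPM) in HepG2. let-7a-5p, the form present in the most hairpin copies, had 11167 reads (36678 CPM) and 104 reads (4555 CPM). The intervals of the levels did not overlap between libraries for either member. Among other abundant miRNAs this also held for miR-21-5p and miR-100-5p but not for miR-25-3p. The share over all miRNAs was not counted, so the lack of overlap is not read as particular to these members. The ratios were 9.12 for let-7f-5p (7.69 to 10.9) and 8.05 for let-7a-5p (6.64 to 9.86), and these could not be told apart beyond counting error. let-7f-5p ranked 2nd of all miRNAs in MHCC97H and 22nd in HepG2, and let-7a-5p ranked 6th and 29th.

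let-7g-5p and let-7i-5p share U12 and C18, which no other member has. let-7i-5p, which represses the endotoxin receptor TLR4 in human bile duct cells, had 8242 reads (27071 CPM) in MHCC97H and 121 reads (5300 CPM) in HepG2. let-7g-5p had 8184 reads (26881 CPM) and 215 reads (9417 CPM). In MHCC97H the levels of the 2 were within counting error of each other, while in HepG2 let-7g-5p was the higher. let-7i-5p was thus 5.11-fold higher in MHCC97H (4.27 to 6.16) and let-7g-5p 2.85-fold higher (2.49 to 3.28). After median centring the ratio of let-7g-5p was 1.32 (1.15 to 1.51).

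let-7b-5p, which as free RNA activates the receptor TLR7 in mouse neurons, had 2516 reads (8264 CPM) in MHCC97H and 16 reads (701 CPM) in HepG2. Its ratio of 11.8 (7.25 to 20.7) was the largest point value among the 8 members with HepG2 reads, with an interval that took in the ratios of let-7f-5p and let-7a-5p. let-7c-5p, which differs from let-7b-5p by a base, had 939 reads (3084 CPM) and 12 reads (526 CPM), a 5.87-fold difference (3.34 to 11.4). let-7d-5p, reported to be low in the lungs of patients with pulmonary fibrosis, had 760 reads (2496 CPM) in MHCC97H and 17 reads (745 CPM) in HepG2. Its 3.35-fold difference (2.08 to 5.79) was, after median centring, 1.55 with an interval that included 1 (0.96 to 2.67). The least abundant member in MHCC97H was let-7e-5p, with 277 reads (910 CPM) against 3 reads (131 CPM) in HepG2, so that its ratio of 6.92 (2.34 to 33.8) is poorly fixed.

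miR-98-5p is a let-7 in all but name. It had 487 reads (1600 CPM) in MHCC97H and none in HepG2, where the exact interval of a count of 0 reaches 162 CPM. It was 12.2-fold higher against the floor of 131 CPM, and the exact lower end of its ratio was 9.86. Had its ratio been that of the summed family, 6.20 reads would have fallen to it in HepG2.

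**Figure D2:**
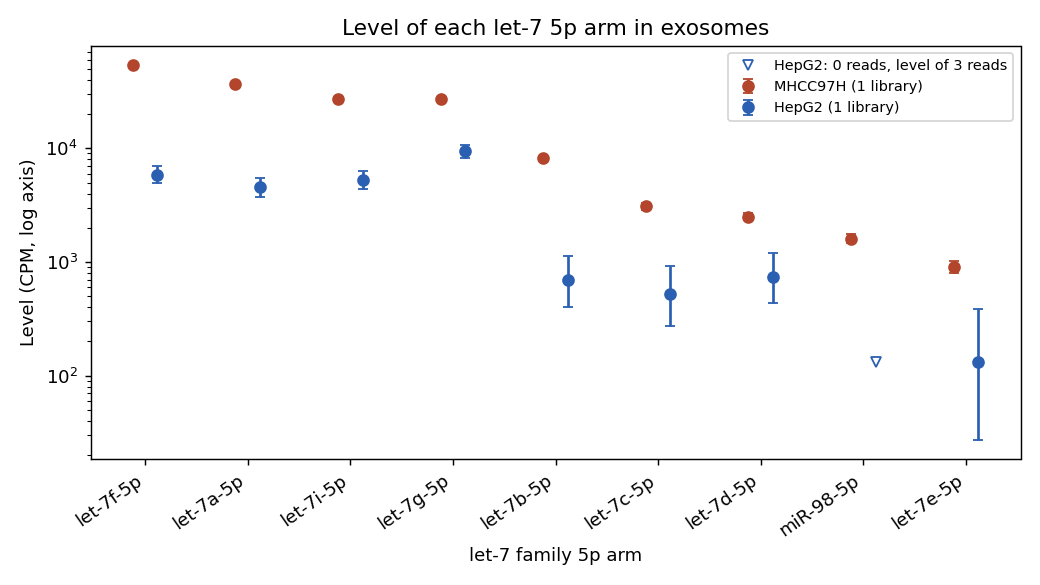
Level of each let-7 5p arm (y axis, CPM on a log axis) in the MHCC97H library (red) and the HepG2 library (blue), with exact 95% counting intervals as bars. MHCC97H points lie above HepG2 points for all 9 arms; the open triangle marks the level of 3 reads for miR-98-5p, which had 0 reads in HepG2.

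The order of the members also differed when a repeated name was counted once. In MHCC97H it ran let-7f, let-7a, let-7i, let-7g, let-7b, let-7c, let-7d, miR-98 and let-7e, and each step but that from let-7i to let-7g exceeded counting error. In HepG2 it ran let-7g, let-7f, let-7i, let-7a, let-7d, let-7b, let-7c, let-7e and miR-98. There the steps from let-7g to let-7f, from let-7a to let-7d and from let-7c to let-7e exceeded counting error, and the neighbours elsewhere in the order did not. With the repeated entries of let-7a-5p and let-7f-5p summed, let-7a-5p came first and let-7f-5p next in both libraries. The change at the top of the order thus rests on how repeats are counted. Summing adds 3 nearly equal entries for let-7a-5p and 2 for let-7f-5p, while let-7g-5p has 1. Whether the entries of a name hold the same reads was not tested.

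Within the family, let-7f-5p made up 33.3% of the reads in MHCC97H (32.9 to 33.8%) and 21.5% in HepG2 (18.4 to 25.0%). let-7g-5p made up 16.7% (16.4 to 17.1%) and 34.6% (30.8 to 38.5%). Counted in this way, the leading member was let-7f-5p in one library and let-7g-5p in the other. With repeated entries summed, let-7a-5p led in both, at 38.3% in MHCC97H and 32.4% in HepG2, and let-7g-5p held 9.37% and 22.3%. let-7a-5p held 22.9% in MHCC97H and 16.7% in HepG2 (13.9 to 19.9%), and let-7i-5p held 16.9% and 19.5% (16.4 to 22.8%). let-7b-5p held 5.15% and 2.57% (1.48 to 4.14%), and let-7d-5p held 1.56% and 2.73% (1.60 to 4.34%). For let-7c-5p (1.92% and 1.93%) and let-7e-5p (0.567% and 0.482%) the shares lay close together, with wide HepG2 intervals of 1.00 to 3.35% and 0.0996 to 1.40%. miR-98-5p held 0.997% in MHCC97H, and its 0 of 622 HepG2 reads allows a share of up to 0.591% by the exact interval.

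These shares do not depend on how the libraries are scaled, but they do on how repeated entries are counted. let-7f-5p and let-7a-5p together held 56.2% of family reads in MHCC97H (55.8 to 56.6%) and 38.3% in HepG2 (34.4 to 42.2%). The odds that a family read came from either of them were 2.07 times higher in MHCC97H (1.75 to 2.45). With repeated entries summed the shares were 75.5% and 60.1%, and the odds were 2.04 times higher (1.79 to 2.33). let-7g-5p and let-7i-5p together held 33.6% (33.2 to 34.0%) and 54.0% (50.01 to 58.0%). Counting the 5 members linked by single mismatches (let-7a, let-7b, let-7c, let-7e and let-7f) as 1 group, a choice made after the values were seen, gave 63.8% and 43.2%. Set against each other in pairs, 17 of the 36 pairs of members had ratios that differed beyond counting error, with no adjustment for their number. let-7g-5p lay below 6 of the other members and was not told apart from let-7d-5p and let-7e-5p. let-7d-5p lay below 4, let-7a, let-7b, let-7f and miR-98. The ratio of let-7f-5p was 3.19 times that of let-7g-5p (2.56 to 4.00).

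**Figure D3:**
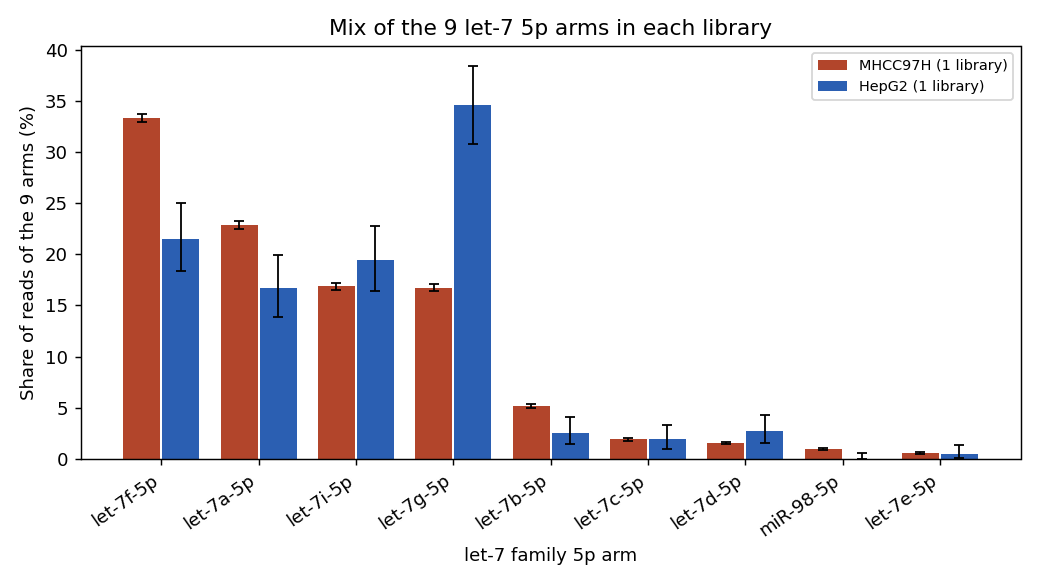
Share of each arm in the reads of the 9 let-7 5p arms (y axis, %), in the MHCC97H library (red, 48865 reads) and the HepG2 library (blue, 622 reads), with exact 95% counting intervals as bars. With each repeated name counted once, let-7f-5p leads in MHCC97H at 33.3% and let-7g-5p in HepG2 at 34.6%; with repeats summed, which is not plotted, let-7a-5p leads in both.

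The proportions of single-mismatch neighbours could not be told apart between the libraries. Per 100 let-7a-5p reads there were 8.41 let-7c-5p reads in MHCC97H (7.86 to 8.99) and 11.5 in HepG2 (5.78 to 21.03). For let-7e-5p there were 2.48 (2.19 to 2.79) and 2.88 (0.585 to 8.67). let-7a-5p itself had 68.5 reads per 100 of let-7f-5p in MHCC97H (66.9 to 70.2) and 77.6 in HepG2 (59.5 to 101). Per 100 let-7b-5p reads there were 37.3 let-7c-5p reads (34.6 to 40.2) and 75 (32.4 to 169). Each HepG2 interval took in the MHCC97H value, and the part of shared or misread reads in these proportions was not tested.

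The 9 mature forms come from 12 hairpins on 8 chromosomes. let-7a-5p has 3 hairpins and let-7f-5p has 2, and their sequences show why a read of the mature arm has no single origin. In the RefSeq hairpins below (GRCh38.p14) the mature 5p arm is in capitals. They lie at chr9:94175957-94176036 (plus strand), chr11:122146522-122146593 (minus), chr22:46112749-46112822 (plus), chr9:94176347-94176433 (plus) and chrX:53557192-53557274 (minus).
MIRLET7A1: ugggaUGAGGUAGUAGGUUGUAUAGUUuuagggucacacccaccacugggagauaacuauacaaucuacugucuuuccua
MIRLET7A2: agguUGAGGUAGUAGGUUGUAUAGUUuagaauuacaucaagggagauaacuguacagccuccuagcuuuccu
MIRLET7A3: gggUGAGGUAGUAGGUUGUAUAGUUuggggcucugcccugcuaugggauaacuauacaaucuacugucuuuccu
MIRLET7F1: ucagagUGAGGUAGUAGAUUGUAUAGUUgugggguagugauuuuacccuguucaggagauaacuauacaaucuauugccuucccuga
MIRLET7F2: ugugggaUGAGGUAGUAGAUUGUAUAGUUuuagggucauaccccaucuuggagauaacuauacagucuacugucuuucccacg

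After the mature arm the next 2 bases are UU, UA and UG in the let-7a hairpins, and GU and UU in the let-7f hairpins. The count table holds 3 entries for let-7a-5p, with 11167, 11123 and 11122 reads in MHCC97H and 104 in each in HepG2. It holds 2 for let-7f-5p, with 16293 and 16213 reads in MHCC97H and 134 and 133 in HepG2. The entries of a name thus differed by at most 45 reads, or 0.403% of the highest, for let-7a-5p and by 80 reads, or 0.491%, for let-7f-5p. Which entry belongs to which hairpin is not stated in the table, and nearly all reads of these members cannot be assigned to a locus.

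The other members have 1 hairpin each and point to a locus. Positions are from GENCODE release 29 (GRCh38), which was not used in the counting. MIRLET7D lies on chromosome 9 (94178834 to 94178920, plus strand), 2400 bases after MIRLET7F1, and all 3 hairpins of that cluster lie in an intron of the long non-coding RNA gene AL158152.2. let-7d-5p had a ratio of 3.35, while let-7f-5p and let-7a-5p, which also arise elsewhere, had ratios 2.72 times (1.53 to 4.55) and 2.40 times (1.34 to 4.06) as large. MIRLET7B, on chromosome 22 (46113686 to 46113768, plus strand), overlaps an exon of MIRLET7BHG 863 bases after MIRLET7A3. MIR98 (53556223 to 53556341, minus strand) and MIRLET7F2 lie 850 bases apart in an intron of HUWE1, a ubiquitin ligase gene on chromosome X. The ratio of miR-98-5p was at least 1.07 times that of let-7f-5p by the exact interval.

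let-7g-5p and let-7i-5p have no let-7 neighbour. MIRLET7G lies in an intron of WDR82 on chromosome 3 (52268278 to 52268361, minus strand), a gene for a subunit of histone methyltransferase complexes. MIRLET7I lies in an intron of the long non-coding RNA gene AC048341.1 on chromosome 12 (62603686 to 62603769, plus strand). The ratio of let-7i-5p was 1.79 times that of let-7g-5p (1.42 to 2.26).

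The remaining loci pair a let-7 hairpin with members of the miR-99/100 and miR-125 families. MIRLET7C, on chromosome 21 (16539828 to 16539911, plus strand), lies 658 bases after MIR99A in an intron of MIR99AHG. miR-99a-5p had 3914 reads in MHCC97H and 51 in HepG2, and the ratio of let-7c-5p was 1.02 times as large as its own (0.53 to 2.11). MIRLET7E lies between MIR99B and MIR125A in an intron of SPACA6 on chromosome 19 (51692786 to 51692864, plus strand). miR-99b-5p had 1670 reads against 29 and miR-125a-5p had 257 against 6. The ratio of let-7e-5p was 1.60 times that of miR-99b-5p (0.49 to 8.28) and 2.15 times that of miR-125a-5p (0.45 to 13.4), both wide because let-7e-5p had 3 HepG2 reads. MIRLET7A2 shares the gene MIR100HG on chromosome 11 with MIR100 and MIR125B1. miR-100-5p had 12687 reads against 207, and the ratio of let-7a-5p was 1.75 times as large (1.38 to 2.24), although let-7a-5p also comes from chromosomes 9 and 22. miR-125b-5p, which has a second hairpin on chromosome 21, had 521 reads against 13.

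All 5 of these partner arms that were in the table were called higher in MHCC97H. The shares to set beside this are 20.4% of all miRNAs tested and 49.6% of those averaging 500 CPM or more, as these 5 did. miR-125a-5p, with 263 CPM in HepG2, reached that mean through its MHCC97H level. Median centring left 2 of the 5 called, against 9.94% of all miRNAs tested, and the share of those averaging 500 CPM or more was not counted there. Within counting error, let-7c-5p and let-7e-5p were not told apart from the partners beside them.

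By the difference in log2 ratio, over these 2 libraries, the well covered miRNAs whose ratio lay nearest to that of the summed family were miR-222-3p, miR-27a-3p and miR-99a-5p. miR-222-3p, a repressor of the p27 brake on the cell cycle, had a ratio of 5.93 (3.52 to 10.9). miR-27a-3p, of the miR-23a cluster, had 5.84 (4.24 to 8.26), and miR-99a-5p had 5.76 (4.37 to 7.74). With 2 libraries this likeness describes a single ratio and no shared pattern.

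Markers of other cell types were set beside these results. The 7 red cell and leukocyte miRNAs looked at were all detected in both libraries, and together took 1.37% of reads in MHCC97H and 2.97% in HepG2. Their sum was thus lower where let-7 was higher, but not all of them went this way. The 3 red cell miRNAs summed to 1.15% in MHCC97H and 2.45% in HepG2. miR-142-3p, miR-142-5p and miR-223-3p had lower CPM in MHCC97H, but among these the ratio interval excluded 1 for miR-142-3p alone (0.0504 to 0.108). It was 0.601 to 1.13 for miR-142-5p and 0.216 to 1.02 for miR-223-3p. miR-144-3p had 434 CPM in MHCC97H and 219 CPM in HepG2, and miR-150-5p had 200 and 175 CPM, with ratio intervals that included 1. The let-7 share without the 7 was 16.3% and 2.81%. The 3 muscle miRNAs, in contrast, summed to 0.528% in MHCC97H and 0.0394% in HepG2, where miR-206 and miR-133a-3p were at 0. The mesenchymal list of 3 took 2.07% and 2.44%, and the endothelial miR-126-3p 0.631% and 0.609%. The part of any of these cells in the let-7 levels was not tested.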

How the data were processed

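Per the labels' protocols, small RNA of ultracentrifuged exosomes went through an NEBNext small RNA kit; cutadapt and Bowtie are named in the submitters' processing notes. Raw counts of reads per mature miRNA were deposited, 1 column for each library. For the aligner, the mismatch setting, miRBase release and genome build were not given in the sources used here. Its 915 entries cover 793 names, of which 78 repeat; a repeated name entered once, at its highest count. CPM was computed from the resulting totals of 304457 and 22831 reads, which set the precision. Ratios carry exact Clopper-Pearson intervals on the split of reads; a call needed 2-fold with a pseudocount of 1 CPM, an interval excluding 1 and 10 CPM in at least 1 library. Shares within the family carry exact binomial intervals, and pairs of members conditional odds ratios. Reads carry no molecular identifiers, so intervals cover counting error only. Named miRNAs were all members, the locus partners, the 3p arms of the same hairpins and the 3 closest in ratio. Neither arm of miR-4763, which was also listed as a partner, was in the count table. Members and lists were chosen with earlier results of these data known. Calls were tested on simulated data. Alternatives changed scaling (edgeR 4.0.16 trimmed mean of M-values, median centring, other totals), repeats, filter, fold and interval. Intervals came from scipy 1.17.1 under Python 3.11.15 and figures from matplotlib 3.10.9; edgeR ran under R 4.3.3.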

Additional observations from a re-analysis of the deposited data

How the results depend on the processing

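The direction of the members did not turn under the 6 other scalings and ways of counting repeats. The summed ratio was 2.72 with median centring, 3.72 with a total without the most abundant miRNAs and 6.83 with a total without the members. The number of members called ranged from 7 to 9 over 13 settings, with 7 under median centring and at a fold of 4 (without let-7g-5p and let-7d-5p) and 8 without the most abundant miRNAs (without let-7g-5p). Of the 5 partners, 2 were called with median centring, 3 without the most abundant miRNAs and 3 at a fold of 4. The shares of all miRNAs tested that were called for MHCC97H in these settings were 9.94%, 13.3% and 15.3%. The shares among miRNAs averaging 500 CPM or more were not counted in them. Over all miRNAs, calls for MHCC97H went from 111 to 54 with median centring, 72 without the most abundant and 281 by fold alone, and calls for HepG2 from 49 to 97, 73 and 137. The let-7 share in MHCC97H and HepG2 was 23.1% and 3.83% with repeats summed, 18.8% and 3.89% without miR-21-5p, and 27.6% and 8.83% without the most abundant miRNAs other than members. In MHCC97H it was 16.3% without blood cell markers. HepG2 depth limits what can be seen: 5 members rest on 17 or fewer HepG2 reads. No paired analysis was possible because there was 1 library per cell line, and no replicate could be left out.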

Other observations

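The 3p arms of the same hairpins give a second view of the loci. The 11 that were in the table summed to 2456 MHCC97H reads and 4 HepG2 reads. Their CPM ratio was 46.0 (18.0 to 169), and 9 of them had no HepG2 read. A lack of HepG2 reads was not particular to these arms. Of the 793 miRNAs in the table, 362 were detected in HepG2 and 763 in MHCC97H. Among arms of other families, miR-16-2-3p had 919 MHCC97H reads and miR-27b-5p had 685, both with 0 in HepG2. The 5p arms had 19.9 reads for each 3p read in MHCC97H and 155.5 in HepG2, the latter on 4 reads. Some 3p arms belong to 1 hairpin where the 5p arm does not. In MHCC97H let-7f-1-3p of chromosome 9 had 284 reads and let-7f-2-3p of chromosome X had 100. let-7a-2-3p of chromosome 11 had 62 reads, and let-7a-3p, which comes from chromosome 9 or 22, had 959. How far the 3p arms mirror the share of each locus in the 5p reads was not tested. Against let-7d-5p, the partner arm let-7d-3p had 365 reads and 3.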
